A study of Mus musculus with 48 samples.

Results

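The core circadian clock of the mouse was followed through 10 genes: the activators Arntl (also called Bmal1), Clock and Npas2, the repressors Per1, Per2, Per3, Cry1 and Cry2, and the nuclear receptors Nr1d1 and Nr1d2. Their members were taken by symbol, as every probe that the platform annotation maps to one of these genes, which gave 21 of the 46624 probes on the array. Tests were run on probes with detection (p under 0.05) in 6 or more of the 48 hearts. In all, 13 of the 21 probes, standing for 8 of the 10 genes, passed, among 17624 tested probes. Cry1, with 1 probe detected on 0 arrays, and Npas2, with probes detected on 0 and 3 arrays, were not tested. A further 5 probes of Clock, Per2, Per3 and Cry2 were detected on 0 to 2 arrays and were also left out of the tests.

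RNA came from the left ventricular myocardium of male C57BL/6 mice that were 8, 16, 32 or 48 weeks old, with 1 array per heart. All mice had been bought at 7 weeks of age, kept group housed under 12 h of light and 12 h of dark, anaesthetised with sodium pentobarbital, and their hearts were perfused outside the body in Langendorff mode with 20 min of stabilisation. The I/R hearts then had 25 min of global ischaemia at body temperature and 45 min of aerobic reperfusion, and the normoxic hearts were perfused without ischaemia for a matched time, with 6 hearts in each of the 8 groups of age and treatment. No genetic change is given for any group, and the normoxic hearts share the anaesthesia, excision and perfusion of the I/R hearts. The labels give no hour of collection for any heart, so no level is placed on a time axis here. A difference between groups or hearts cannot be told apart from a difference in that hour. The labels number the hearts within a group and do not say which mice shared a litter, a cage or a day. The p-values set a difference or slope against the spread between these hearts, and take the hearts as independent.

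In the mouse clock, the proteins of Arntl and Clock (or its relative Npas2) pair on E-box sequences and switch on the Per and Cry genes, whose proteins return to the nucleus and repress that pair. Nr1d1 and Nr1d2, also switched on through E-boxes, bind ROR elements and repress Arntl, while the PAR bZIP factors Dbp and Tef act through D-boxes. In rodent heart the transcripts of Arntl and those of the Per genes and Dbp are known to peak at opposite times of day.

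The promoter windows of some members held sequences through which the loop is known to act. RefSeq windows on build GRCm38.p6, of 250 bases before and 50 after a gene's start, were found for 9 of the 10 members (13 windows), and Per2 had no entry. The motifs searched on both strands were the E-box CACGTG, its variant CACGTT, the D-box TTATGTAA or TTACGTAA, the ROR element core TAGGTCA or TGGGTCA, and the cAMP element TGACGTCA. CACGTG and CACGTT share their first 5 letters, and no 2 matches in the windows of the members overlapped. Among all 32851 windows, 7.15% held CACGTG, 4.68% CACGTT, 1.06% a D-box, 6.45% a ROR element core and 1.79% the cAMP element. The stretches below carry the matches of members whose levels are described next, 5′ to 3′ in the direction of the gene, with the matched letters in capitals.
Arntl, second start (chr7:113207530-113207559, plus strand), 30 bases around a ROR element core that begins 30 bases after the start: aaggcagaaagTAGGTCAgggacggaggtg
Per1, first start (chr11:69098699-69098948, plus strand), with an E-box 166 bases before the start: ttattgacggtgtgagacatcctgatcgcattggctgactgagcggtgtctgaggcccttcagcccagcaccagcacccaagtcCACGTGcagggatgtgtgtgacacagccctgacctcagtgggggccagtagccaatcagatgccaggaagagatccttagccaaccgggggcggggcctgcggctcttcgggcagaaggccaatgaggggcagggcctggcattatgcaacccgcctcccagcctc
Per3 (chr4:151044666-151044915, minus strand), with D-boxes 205 and 158 bases before the start: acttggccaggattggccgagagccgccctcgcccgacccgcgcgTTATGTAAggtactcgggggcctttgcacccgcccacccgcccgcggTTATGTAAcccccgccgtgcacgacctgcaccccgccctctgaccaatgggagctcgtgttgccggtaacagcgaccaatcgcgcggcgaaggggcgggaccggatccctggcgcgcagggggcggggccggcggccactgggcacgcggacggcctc
Cry2 (chr2:92434070-92434319, minus strand), with the E-box variant 166 bases before the start: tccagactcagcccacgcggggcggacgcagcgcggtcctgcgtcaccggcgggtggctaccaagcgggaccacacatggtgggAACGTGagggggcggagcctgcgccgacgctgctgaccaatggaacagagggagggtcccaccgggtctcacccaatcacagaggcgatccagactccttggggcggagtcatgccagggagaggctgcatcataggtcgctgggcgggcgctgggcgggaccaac
Nr1d1 (chr11:98775378-98775627, minus strand), with the E-box variant 28 bases before the start: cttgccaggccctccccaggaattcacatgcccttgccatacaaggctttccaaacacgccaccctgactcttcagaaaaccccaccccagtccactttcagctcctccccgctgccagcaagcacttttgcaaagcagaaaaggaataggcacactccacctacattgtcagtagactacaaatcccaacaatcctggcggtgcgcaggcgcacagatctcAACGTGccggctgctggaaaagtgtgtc
Cry1 held both forms of the E-box, at 60 and 79 bases before its start, and the windows of Clock, Npas2 and Nr1d2 held none of the motifs. A match is a description of the letters and says nothing of binding in these hearts.

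The levels below are log2 intensities after background correction and quantile normalization, so a difference of 1 is a change of 2-fold, and levels are set only against other values of the same probe. RNA integrity (RIN) was 8.50 ± 0.30 (SD, n = 24) in normoxic and 7.87 ± 0.30 (SD, n = 24) in I/R hearts. Of the I/R hearts, the mean RIN from the youngest to the oldest age was 8.08, 8.03, 7.75 and 7.60. Between 13362 and 15080 probes were detected on a normoxic and between 11072 and 13854 on an I/R array, and the median signal was 131.7 to 153 and 156.4 to 195.3. All 8 cardiomyocyte markers were detected and tested, and their summed intensity ranged from 212744 to 249914 in normoxic and from 257139 to 277574 in I/R hearts. The T and B cell markers Cd3e, Cd3g, Cd79a and Ms4a1 were detected on 0 arrays, as was the atrial marker Sln. Markers of atrial muscle stood at very different levels from heart to heart within each group, with the summed intensity of Myl7 and Myl4 between 252 and 11833 over the 48 hearts.

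**Figure D1:**
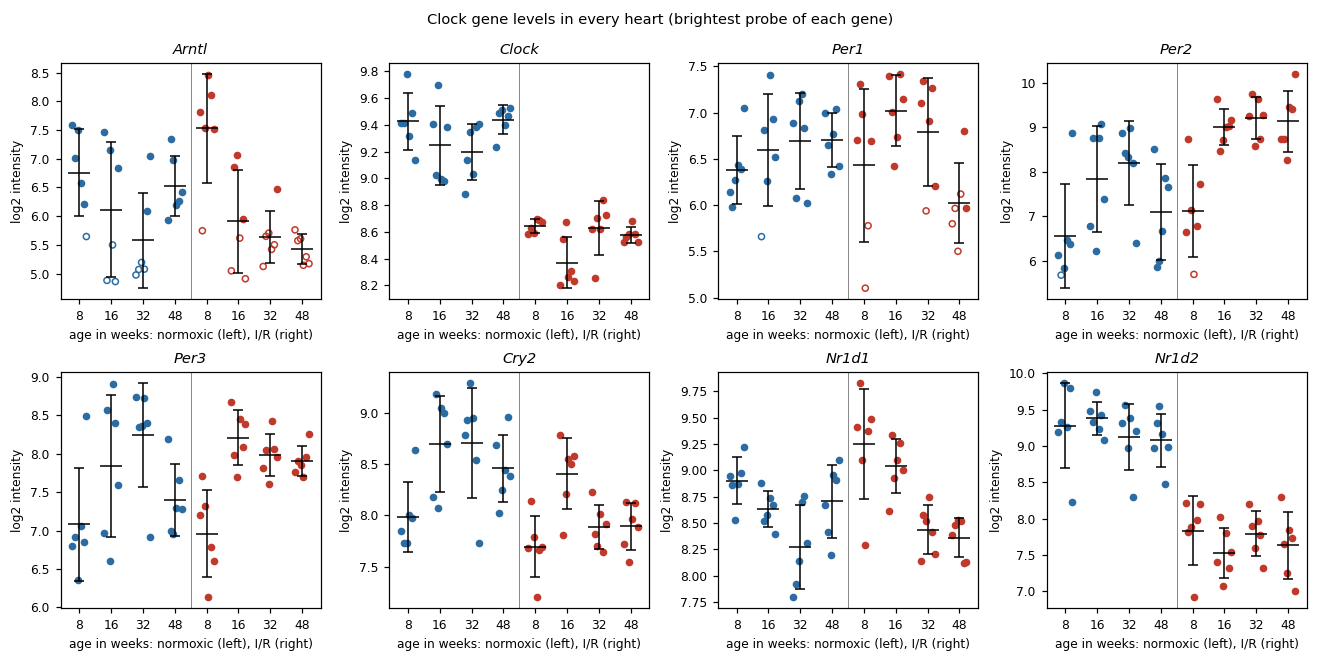
Levels of the 8 tested clock genes in every heart, as log2 intensity of the gene's brightest probe on the vertical axis, against the 4 ages of normoxic (blue) and I/R (red) hearts. Each point is 1 heart (open where the probe was not detected), and the black bar and whiskers give the mean ± SD of the 6 hearts. Clock and Nr1d2 lie lower in I/R hearts at every age, while Arntl, Per2 and Per3 are spread widely within normoxic groups.

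Arntl, whose protein is the required partner of the activator pair, was among the most variable transcripts between hearts of the same age and treatment. In normoxic hearts the lowest, median and highest Arntl level were 5.65, 6.80 and 7.58 at 8 weeks, then 4.86, 6.17 and 7.46 at 16 weeks, 4.98, 5.14 and 7.05 at 32 weeks, and 5.94, 6.35 and 7.34 at 48 weeks. The 4 normoxic groups overlapped. In I/R hearts they were 5.75, 7.67 and 8.47 at 8 weeks, 4.91, 5.79 and 7.07 at 16 weeks, 5.12, 5.58 and 6.47 at 32 weeks, and 5.14, 5.43 and 5.76 at 48 weeks. Of the I/R hearts, 5 of 6 at 8 weeks stood at 7.52 or more, above every I/R heart of the older ages, and 1 stood at 5.75. Arntl is a dim probe, detected in 16 of 24 normoxic and 9 of 24 I/R hearts, and in 0 of 6 I/R hearts at 48 weeks. Its within-group SD was 0.85 in normoxic hearts, at the 99.9th percentile of all tested probes, whose median SD was 0.21.

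Clock, the partner of Arntl in the pair and a constitutive transcript in many tissues, was bright, with an ordinary spread within normoxic groups. Its lowest, median and highest levels in normoxic hearts were 9.14, 9.41 and 9.78 at 8 weeks, 8.98, 9.20 and 9.70 at 16 weeks, 8.89, 9.24 and 9.40 at 32 weeks, and 9.24, 9.48 and 9.52 at 48 weeks. After I/R they were 8.58, 8.65 and 8.69 at 8 weeks, 8.20, 8.28 and 8.67 at 16 weeks, 8.26, 8.66 and 8.84 at 32 weeks, and 8.52, 8.57 and 8.68 at 48 weeks. At every age the highest I/R heart lay below the lowest normoxic heart, where 29% to 38.6% of all tested probes had no overlap either. The within-group SD of Clock was 0.22 in normoxic hearts (percentile 52.3) and 0.14 in I/R hearts (percentile 12.1).

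Per2, a repressor whose transcript also answers to signals from outside the clock, had the widest spread of the members within normoxic groups. In normoxic hearts the lowest, median and highest Per2 level were 5.67, 6.25 and 8.87 at 8 weeks, 6.22, 8.08 and 9.07 at 16 weeks, 6.38, 8.38 and 8.98 at 32 weeks, and 5.85, 7.16 and 8.51 at 48 weeks. Among I/R hearts they were 5.69, 6.96 and 8.73 at 8 weeks, 8.46, 9.02 and 9.65 at 16 weeks, 8.59, 9.26 and 9.75 at 32 weeks, and 8.27, 9.07 and 10.20 at 48 weeks. All 18 I/R hearts of 16 weeks or more stood at 8.27 or above, and 5 of the 6 at 8 weeks stood at 7.72 or below. The within-group SD of Per2 was 1.10 in normoxic hearts (percentile 100 when rounded) and 0.69 in I/R hearts (percentile 99.6), where that of Arntl was 0.70.

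Per3, the family member least needed for rhythm in mice, and Cry2, a partner of the PER proteins, followed Per2 in their order of groups among normoxic hearts. Per3 in normoxic hearts ranged from 6.36 to 8.49 around a median of 6.89 at 8 weeks, from 6.61 to 8.90 around 8.00 at 16 weeks, from 6.91 to 8.74 around 8.38 at 32 weeks, and from 6.96 to 8.20 around 7.29 at 48 weeks. After I/R, Per3 ranged from 6.13 to 7.71 around 6.99 at 8 weeks, from 7.70 to 8.67 around 8.24 at 16 weeks, from 7.60 to 8.43 around 8.00 at 32 weeks, and from 7.70 to 8.26 around 7.88 at 48 weeks. The highest I/R heart at 8 weeks overlapped the lowest hearts of each later age. Cry2 ranged in normoxic hearts from 7.73 to 8.64 around 7.91 at 8 weeks, from 8.07 to 9.18 around 8.85 at 16 weeks, from 7.74 to 9.29 around 8.86 at 32 weeks, and from 8.03 to 8.96 around 8.41 at 48 weeks. After I/R, Cry2 ranged from 7.20 to 8.14 around 7.69, from 7.81 to 8.79 around 8.53, from 7.64 to 8.23 around 7.87 and from 7.55 to 8.13 around 7.92 at 8, 16, 32 and 48 weeks. Within normoxic groups the SD was 0.72 for Per3 (percentile 99.8) and 0.43 for Cry2 (percentile 98.2), and within I/R groups 0.37 (percentile 75.4) and 0.28 (percentile 47.7).

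Per1, the repressor gene that glucocorticoids and light-driven signals are known to induce, was dim, with detection in 23 normoxic and 17 I/R hearts. Per1 ranged in normoxic hearts from 5.98 to 7.05 around 6.33, from 5.66 to 7.41 around 6.66, from 6.02 to 7.20 around 6.86 and from 6.34 to 7.04 around 6.71 at 8, 16, 32 and 48 weeks. The I/R hearts ranged from 5.10 to 7.30 around 6.70, from 6.43 to 7.42 around 7.08, from 5.94 to 7.34 around 7.01 and from 5.50 to 6.80 around 5.96. The normoxic groups lay on top of each other, and the I/R group at 48 weeks had the lowest median and detection in 2 of its 6 hearts.

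The nuclear receptors were bright in all hearts by their first probes. Nr1d1 ranged in normoxic hearts from 8.53 to 9.22 around 8.91, from 8.40 to 8.88 around 8.62, from 7.80 to 8.76 around 8.23 and from 8.20 to 9.10 around 8.79 at 8, 16, 32 and 48 weeks. After I/R, Nr1d1 ranged from 8.30 to 9.83 around 9.39, from 8.62 to 9.33 around 9.05, from 8.14 to 8.75 around 8.47 and from 8.13 to 8.52 around 8.44. The I/R medians thus stood in the order of age, with overlapping hearts. Nr1d2 ranged in normoxic hearts from 8.23 to 9.87 around 9.29, from 9.08 to 9.75 around 9.37, from 8.30 to 9.57 around 9.26 and from 8.48 to 9.55 around 9.08. After I/R, Nr1d2 ranged from 6.92 to 8.21 around 7.94, from 7.08 to 8.02 around 7.47, from 7.32 to 8.20 around 7.84 and from 7.01 to 8.31 around 7.70. By this probe no I/R heart reached the normoxic hearts of its age, where 29% to 38.6% of all tested probes had no overlap either. The other tested Nr1d2 probe, given below, did not stand lower in I/R hearts.

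Between normoxic hearts of the same age, the activator Arntl and the Per and Cry repressors stood opposite each other. Each tested gene was fitted on the Arntl deviation of a heart from its group mean, with a separate slope for each treatment, over all 17623 other tested probes (limma, p-values adjusted by the Benjamini-Hochberg method over all of them). In normoxic hearts 4 of the 7 other member genes had a slope that passed an adjusted p of 0.05, against 0.335% of all tested probes, of which 25 were positive and 34 negative. The slope is the log2 change of the gene for each log2 unit of Arntl.

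Per3 fell by 0.73 ± 0.08 (SE) for each unit of Arntl (limma, adjusted p = 1.38e-07, 24 normoxic hearts). Per2 fell by 1.12 ± 0.13 (adjusted p = 5.5e-07) and Cry2 by 0.43 ± 0.05 (adjusted p = 1.45e-06), while Clock rose by 0.20 ± 0.04 (adjusted p = 0.00463). By size of the moderated t, Per3, Per2 and Cry2 held ranks 3, 4 and 5 among all 17623 probes, the other Per3 probe rank 16 and Clock rank 18. Per1 had a slope of -0.38 ± 0.10 (adjusted p = 0.0946), and Nr1d1 and Nr1d2 had slopes of -0.04 ± 0.08 (adjusted p = 0.985) and 0.10 ± 0.10 (adjusted p = 0.943). The median slope of the 7 genes was -0.38, and that of all tested probes was 0.00 to 2 decimals (-0.0018).

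In the 24 normoxic hearts, after the group means were removed, Pearson's r with Arntl was -0.87 for Per2 (Spearman's rho -0.87), -0.87 for Per3 (rho -0.89) and -0.87 for Cry2 (rho -0.85). The permutation p-values of r, with hearts shuffled within their groups (100000 shuffles), were 1e-05, 3e-05 and 2e-05, where 1e-05 is the smallest value that these shuffles can give, and 2e-04 for each after Benjamini-Hochberg adjustment over the 20 relations computed. Per1 had r = -0.71 (rho -0.72, permutation p = 8e-04, adjusted 0.00229), and Clock had r = 0.79 (rho 0.83, permutation p = 0.00021, adjusted 0.00084). Without the 2 hearts farthest from the median Arntl level, r was -0.84, -0.82, -0.82, -0.58 and 0.79 for Per2, Per3, Cry2, Per1 and Clock. Within the 4 age groups taken alone, with 6 hearts each, r ranged from -0.95 to -0.80 for Per2, from -0.90 to -0.81 for Per3, from -0.92 to -0.80 for Cry2, from -0.82 to -0.54 for Per1 and from 0.66 to 0.90 for Clock. Each sign was thus the same at every age. Arntl was detected in only 3 and 2 of the 6 normoxic hearts at 16 and 32 weeks, however. The Arntl deviations of the undetected hearts there lie at the level of the background.

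Neither nuclear receptor passed with Arntl. Nr1d1 had r = -0.10 with Arntl (rho -0.07, permutation p = 0.632, adjusted 0.744), but within single ages, from 8 to 48 weeks, its r was -0.76, 0.15, 0.37 and -0.68. Nr1d2 had r = 0.21 (rho 0.22, permutation p = 0.322, adjusted 0.495), with values from -0.39 to 0.62 within ages. With Nr1d1 in the place of Arntl as the reference, 0 of the 7 other genes had a slope past the threshold in normoxic hearts (limma, 2 probes of the whole array).

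Measures of the arrays themselves were set against Arntl in the same normoxic hearts, and none passed. Pearson's r of Arntl was 0.23 with RIN (rho 0.28, permutation p = 0.357, adjusted 0.51), -0.06 with the median signal (rho -0.07, permutation p = 0.791, adjusted 0.833) and 0.33 with the number of detected probes (rho 0.36, permutation p = 0.136, adjusted 0.247). Without the 2 hearts farthest from the median Arntl level, r with RIN was 0.56. Within single ages, from 8 to 48 weeks, r was 0.69, -0.14, 0.21 and 0.80 with RIN, 0.72, 0.10, -0.38 and -0.64 with the median signal, and -0.03, 0.59, 0.32 and 0.16 with the number of detected probes. With RIN in the model, the count of member genes with a slope past the threshold stayed at 4. None of the cell type marker genes fixed for cardiomyocytes, fibroblasts, endothelium, smooth muscle, macrophages, erythroid cells, adipocytes, atrial muscle or neurons passed for a slope on Arntl (limma). The 3 tested macrophage markers had slopes of 0.23 to 0.30 and the 2 tested atrial markers of -0.32 and -0.31, and their part in the result was not tested.

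**Figure D2:**
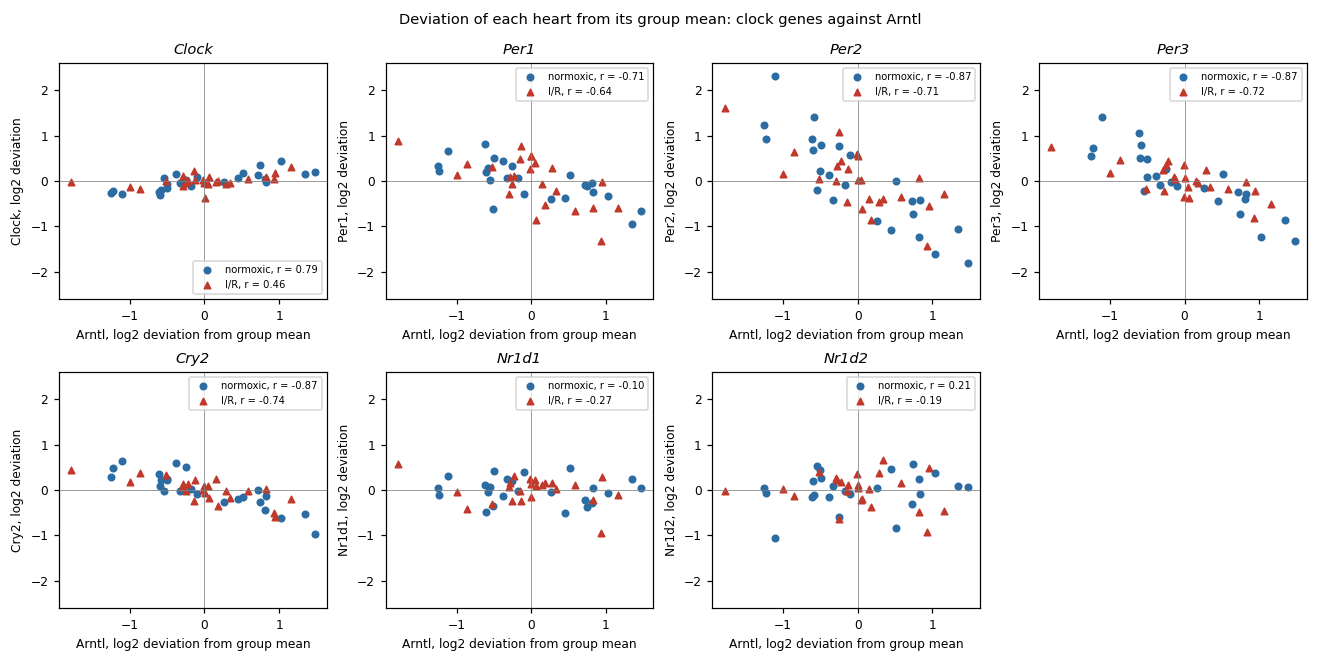
Deviation of each heart from the mean of its group for 7 clock genes (vertical axes, log2 units) against the deviation of Arntl in the same heart (horizontal axes, log2 units), for 24 normoxic hearts (blue circles) and 24 I/R hearts (red triangles). Per1, Per2, Per3 and Cry2 slope down, Clock slopes up gently, and Nr1d1 and Nr1d2 form clouds, with r = -0.10 and 0.21 in normoxic hearts.

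The transcripts most opposite to Arntl over the array were other genes of the same loop and its outputs. By the moderated t in the 24 normoxic hearts, the 5 strongest negative slopes were those of Dbp, Tef, Per3, Per2 and Cry2. Dbp, the D-box activator that the Arntl and Clock pair drives, fell by 1.25 ± 0.12 (SE) per unit of Arntl (limma, adjusted p = 2.71e-09), and Tef, its relative, by 0.60 ± 0.07 (adjusted p = 6.94e-08). The 5 strongest positive slopes were those of Leo1 (0.36 ± 0.05), a subunit of the PAF1 transcription elongation complex, Spon2 (0.91 ± 0.14), a secreted matrix protein, Adam19 (0.52 ± 0.08), a membrane metalloprotease, Fam220a (0.30 ± 0.05) and Stx11 (0.38 ± 0.07), a syntaxin, with adjusted p from 7.17e-05 to 0.00156. In I/R hearts the slopes of Leo1 and Spon2 were 0.31 and 0.74 and also passed (adjusted p = 0.0358 and 0.0469), and Stx11 had a slope of -0.11 (adjusted p = 0.632).

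Of 12 other loop genes listed, 6 were tested, and 2 (Dbp and Tef) passed for a slope in normoxic hearts, both negative. Ciart, a repressor of the activator pair, had a slope of -0.28 (adjusted p = 0.15) and Rora, the activator that competes with Nr1d1 on ROR elements, of -0.11 (adjusted p = 0.429). The median of the 6 was -0.20. Of 10 kinase and ubiquitin ligase genes that act on clock proteins, 8 were tested and 0 passed, with slopes from -0.06 to 0.06 and a median of -0.00094. Of 11 clock output genes, 8 were tested and 1 passed, the deubiquitinase gene Usp2, which fell by 0.35 ± 0.06 (adjusted p = 0.00188). Of 9 glucocorticoid response genes, among them the member Per1, 0 passed, with a median slope of -0.08, and of 9 tested immediate-early genes 0 passed, with a median of -0.03.

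In I/R hearts Per1, Per2 and Cry2 fell with Arntl by their bright probes. Of the 7 other member genes 3 passed, against 0.369% of all tested probes: Cry2 fell by 0.29 ± 0.07 per unit of Arntl (limma, adjusted p = 0.0449), Per2 by 0.70 ± 0.16 (adjusted p = 0.0469) and Per1 by 0.53 ± 0.12 (adjusted p = 0.0469). By the other tested Per1 probe, ILMN_1249997, the slope was -0.03 ± 0.10 (limma, adjusted p = 0.956). Per3 had a slope of -0.38 ± 0.10 (adjusted p = 0.074), and Clock one of 0.09 ± 0.05 (adjusted p = 0.437). All 3 calls sit close to the threshold, and the count became 0 without any single one of 10 hearts, 4 of them normoxic. Dbp and Tef again fell with Arntl, by 0.66 ± 0.14 (adjusted p = 0.0408) and 0.39 ± 0.08 (adjusted p = 0.0358).

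Pearson's r with Arntl in the 24 I/R hearts was -0.74 for Cry2, -0.72 for Per3, -0.71 for Per2 and -0.64 for Per1 (rho -0.73, -0.61, -0.67 and -0.57), with permutation p-values of 0.00039, 0.00174, 0.00015 and 0.00205 and adjusted values of 0.0013 to 0.00456. Without the 2 hearts farthest from the median Arntl level, r was -0.71, -0.56, -0.60 and -0.54. The relation was uneven over ages: r of Per2 was -0.93, -0.86, -0.02 and -0.84 at 8, 16, 32 and 48 weeks, and that of Per3 was -0.80, -0.91, -0.11 and -0.37. At 32 and 48 weeks Arntl was detected in 1 and 0 of 6 I/R hearts, so its deviations there lie at the level of the background. Clock had r = 0.46 (rho 0.44, permutation p = 0.0339, adjusted 0.0678), Nr1d1 r = -0.27 (rho 0.04, adjusted 0.495) and Nr1d2 r = -0.19 (rho -0.11, adjusted 0.54).

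The difference between the I/R and the normoxic slope was tested itself, and 0 of the 7 genes passed, against 0% of all tested probes (0 of 17623, with 1359 at an unadjusted p under 0.05, limma). The I/R minus normoxic slope was 0.35 ± 0.13 for Per3 (adjusted p = 0.422) and 0.43 ± 0.21 for Per2 (adjusted p = 0.639).

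**Figure D3:**
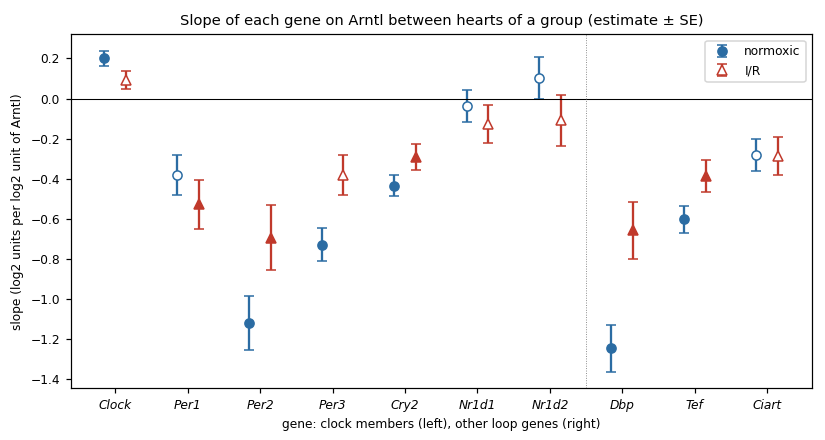
Slope of each gene on Arntl between hearts of the same group (vertical axis, log2 units per log2 unit of Arntl, estimate ± SE) for normoxic (blue circles) and I/R hearts (red triangles), filled where the adjusted p is under 0.05. Per2 and Dbp have the steepest slopes in normoxic hearts, at -1.12 and -1.25, and Clock has a small positive slope of 0.20.

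Single hearts could stand on the far side of their group in most clock genes at once. In the normoxic group of 8 weeks, replicate 6 had the lowest Arntl (5.65, others 6.21 to 7.58) and the highest Per2 (8.87, others 5.67 to 6.47). The same heart had the highest Per3 (8.49, others 6.36 to 7.06), Cry2 (8.64, others 7.73 to 8.01), Per1 and Nr1d1, and the lowest Clock and Nr1d2, so that all 8 genes lay outside the range of the other 5 hearts. In the normoxic group of 32 weeks, replicate 6 stood the other way, with the highest Arntl (7.05, others 4.98 to 6.10) and Clock and the lowest Per1, Per2 (6.38, others 8.19 to 8.98), Per3 (6.91, others 8.34 to 8.74) and Cry2 (7.74, others 8.54 to 9.29).

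In the I/R group of 8 weeks, replicate 2 had the lowest Arntl (5.75, others 7.52 to 8.47) and the highest Per2 (8.73, others 5.69 to 7.72), Per1, Per3, Cry2 and Nr1d1. Replicate 6 of the normoxic 8 week group had a RIN of 8, below the 8.4 to 8.8 of the other 5 hearts, and the part of RIN in its profile was not tested. Replicate 6 of the normoxic 32 week group had 8.3 (others 8.2 to 8.9) and replicate 2 of the I/R 8 week group had 8 (others 7.9 to 8.3). Their arrays detected 14083, 14393 and 13101 probes.

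Age differences in normoxic hearts did not pass for any clock gene. Of the 8 tested genes 0 passed for 48 against 8 weeks (background 1.06% of tested probes, 1484 at an unadjusted p under 0.05), and 0 for any age difference (background 1.15%, 1399 at an unadjusted p under 0.05, limma). The smallest adjusted p for any age difference were 0.122 for Cry2, 0.163 for Per3, 0.256 for Nr1d1 and 0.284 for Per2. Per3 was higher at 32 than at 8 weeks by 1.17 ± 0.32 (SE, adjusted p = 0.0508), Cry2 by 0.72 ± 0.20 (adjusted p = 0.0622) and Per2 by 1.64 ± 0.50 (adjusted p = 0.107), while Arntl differed by -1.18 ± 0.43 (adjusted p = 0.231). At 48 against 8 weeks the differences were smaller, at 0.32 ± 0.32 for Per3, 0.47 ± 0.20 for Cry2, 0.54 ± 0.50 for Per2 and -0.23 ± 0.43 for Arntl.

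The 2 single normoxic hearts above bear on this count. They were singled out by their levels of these same genes, so the calls without them are a description only. In 46 of the 48 fits that left out 1 heart, no gene passed for any age difference. Without replicate 6 of the 8 week group, 3 genes passed for any age difference: Per3 (adjusted p = 0.0227), Cry2 (adjusted p = 0.0413) and Per2 (adjusted p = 0.0435). Without replicate 6 of the 32 week group, Cry2 (adjusted p = 0.015) and Per3 (adjusted p = 0.0234) passed. A fit that weights arrays by their quality also called Cry2, Per3 and Per2 (adjusted p = 0.00752, 0.0112 and 0.0182).

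In I/R hearts the clock genes differed between the age groups, and age cannot be told apart from the hour of collection, which is not given. Of the 8 genes 6 passed for any age difference (Arntl, Per1, Per2, Per3, Cry2 and Nr1d1), where 45.1% of all tested probes passed too. The step from 8 to 16 weeks was narrower: 3 of the 8 genes passed against 1.24% of all tested probes. Per3 was higher at 16 weeks by 1.25 ± 0.32 (2.38-fold, limma, adjusted p = 0.0313), Per2 was higher by 1.89 ± 0.50 (3.69-fold, adjusted p = 0.0443), and Arntl was lower, with a difference of -1.62 ± 0.43 (3.08-fold, adjusted p = 0.0411). Arntl was detected in 5 of the 6 I/R hearts at 8 weeks and in 3 of 6 at 16 weeks, and its undetected hearts lie at the background. Cry2 stood 0.71 ± 0.20 higher (adjusted p = 0.0624). The mean RIN of these I/R groups was 8.08 and 8.03. Their array median signals did not overlap, at 156.4 to 174.5 at 8 weeks and 177.2 to 195.3 at 16 weeks. Between 13099 and 13854 probes were detected on an array at 8 weeks and between 12433 and 13369 at 16 weeks. The part of these array measures in the step was not tested.

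The direction held in each fit run, yet the calls of this step lie near the threshold. Median centring, array weights or dropping the filter on dim probes each brought the count to 0. It was 0 or 1 without any single one of 9 of its 12 hearts: replicates 1, 3, 4, 5 and 6 of 8 weeks and replicates 1, 4, 5 and 6 of 16 weeks.

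The older I/R groups differed from the 8 week hearts by more, in comparisons where much of the array differed. Of the 8 genes 4 passed at 32 against 8 weeks (background 32.3%) and 4 at 48 against 8 weeks (background 33.2%): Arntl and Nr1d1 lower, and Per2 and Per3 higher. At 48 weeks Arntl was not detected in any heart and stood at least 2.89-fold lower than at 8 weeks (limma, adjusted p = 0.000136). Nr1d1 was lower, by -0.89 ± 0.18 (1.85-fold, adjusted p = 9.71e-05). Per2 was higher by 2.02 ± 0.50 (4.04-fold, adjusted p = 0.00159) and Per3 by 0.95 ± 0.32 (1.93-fold, adjusted p = 0.0166). By the other Per3 probe, ILMN_2609014, which was detected in 0 of these 12 hearts, the adjusted p was 0.716. The call of Per3 was lost with RIN in the model (adjusted p = 0.0768), with median centring (0.141), with the authors' deposited values (0.0662) and without replicate 4 of the 8 week I/R group (0.0589), and RIN was lower in the 48 week than in the 8 week I/R hearts (mean 7.60 against 8.08).

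Cry2 and Per1 had another order of ages. Cry2 was highest at 16 weeks, and fell to 32 weeks by 0.52 ± 0.20 (adjusted p = 0.0456) and to 48 weeks by 0.51 ± 0.20 (adjusted p = 0.0489). Per1 was lower at 48 than at 16 weeks by its bright probe, where it fell by 1.00 ± 0.29 (limma, adjusted p = 0.00728). By its other tested probe, ILMN_1249997, this difference was 0.01 ± 0.19 (adjusted p = 0.97). At 48 against 8 weeks ILMN_1249997 differed by 0.66 ± 0.19 (adjusted p = 0.0047) and the bright Per1 probe by -0.40 ± 0.29 (adjusted p = 0.3). Nr1d1 by its bright probe also fell from 16 weeks, by 0.60 ± 0.18 at 32 weeks (adjusted p = 0.00747) and by 0.68 ± 0.18 at 48 weeks (adjusted p = 0.00278). Its probe ILMN_2710551 fell at both steps too (adjusted p = 0.00495 and 0.000704), while ILMN_2749669 passed at neither (adjusted p = 0.552 and 0.359). By the bright probes, 2 of the 8 genes passed at 32 against 16 weeks (background 28.9%) and 3 at 48 against 16 weeks (background 29.1%). The Cry2 call for any age was lost without replicate 1 of the 16 week I/R group (adjusted p = 0.0678), and that of Per1 without replicate 3 of the 48 week I/R group (adjusted p = 0.0547), as they were with array weights (0.0631 for Cry2 and 0.0571 for Per1). That of Per1 was also lost with RIN in the model (0.0509) and with only I/R arrays in the fit (0.0603). By other probes Nr1d1 (ILMN_2749669, 0.0676) and Per3 (ILMN_2609014, 0.436) did not pass for any age. Other probes of Per1 (ILMN_1249997, 0.00332), Nr1d1 (ILMN_2710551, 1.36e-05) and Nr1d2 (ILMN_2602387, 0.00189) passed. By their bright probes Clock (adjusted p = 0.107) and Nr1d2 (adjusted p = 0.606) did not pass for any age difference in I/R hearts. Because every I/R age comparison shares its 8 or 16 week hearts with another, their values are given side by side only.

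Of the other loop genes, Tef, Ciart and Dbp were higher in I/R hearts at 48 than at 8 weeks, by 1.16 ± 0.26 (adjusted p = 0.000582), 0.92 ± 0.21 (adjusted p = 0.000591) and 1.75 ± 0.51 (adjusted p = 0.00709). That is 3 of 6 tested, beside 33.2% of all tested probes in this comparison, with a median difference of 0.60 beside 0.00029 over all tested probes. Of the kinase and ligase genes 6 of 8 passed, 2 higher and 4 lower, led by Csnk2a2 (0.85 ± 0.09), a catalytic subunit of casein kinase 2, and Csnk1e (-0.57 ± 0.09), which phosphorylates PER proteins. Of the output genes 3 of 8 passed, a share near that of all probes, all lower: Kcnip2 (-1.19 ± 0.24), a subunit of the transient outward potassium channel, Pdk4 (-1.22 ± 0.31), which restrains glucose oxidation, and Ucp3 (-0.93 ± 0.32), a mitochondrial carrier. Against the same 33.2%, of the 5 endothelial markers 4 passed, 3 of them lower, and of the 8 cardiomyocyte markers 0 passed. The summed endothelial intensity ranged from 4826 to 6430 at 8 and from 3939 to 4721 at 48 weeks, and its part in these results was not tested. In whole tissue, fewer cells of a type and less RNA per cell cannot be told apart.

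**Figure D4:**
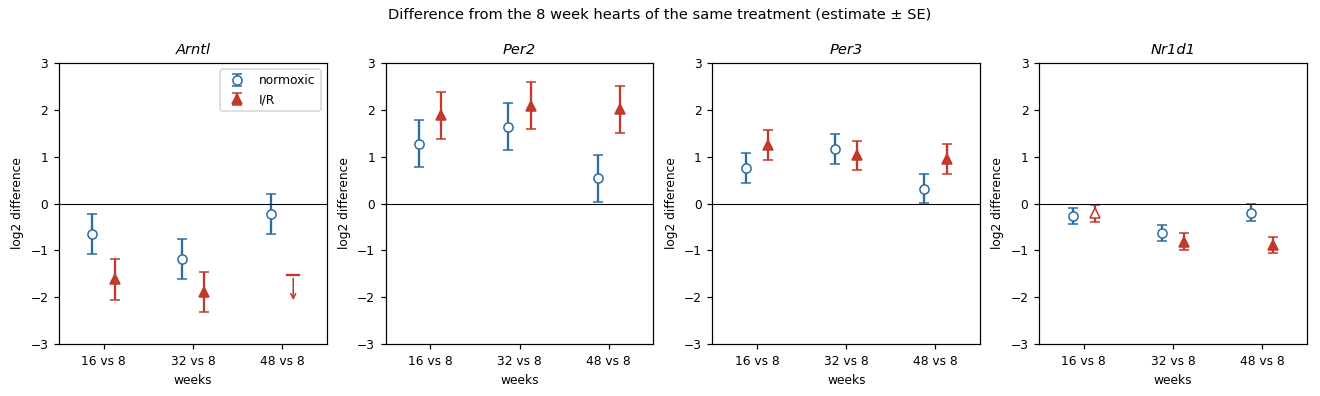
Difference of each older age from the 8 week hearts of the same treatment (vertical axes, log2 units, estimate ± SE) for Arntl, Per2, Per3 and Nr1d1 in normoxic (blue circles) and I/R hearts (red triangles), filled where the adjusted p is under 0.05. An arrow marks Arntl in I/R hearts at 48 weeks, where it was not detected and the line is its bound of at least 2.89-fold. The I/R differences of Arntl at 16 and 32 weeks are -1.62 and -1.89, with detection in 3 and 1 of the 6 hearts of these ages. Those of Per2 lie between 1.89 and 2.09, and no normoxic difference is filled.

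Reperfused and normoxic hearts differed in Clock and Nr1d2 with the smallest adjusted p of the 8 genes. Over the mean of the 4 ages 4 of the 8 genes passed, beside 78.9% of all tested probes: Clock, Cry2 and Nr1d2 were lower and Per2 higher in I/R hearts. Clock was lower by -0.77 ± 0.05 (1.71-fold, limma, adjusted p = 2.81e-17), Nr1d2 by -1.52 ± 0.12 (2.87-fold, adjusted p = 3.16e-16) and Cry2 by -0.49 ± 0.10 (1.4-fold, adjusted p = 2.47e-05), and Per2 was higher by 1.19 ± 0.25 (2.29-fold, adjusted p = 3.88e-05). The call of Per2 was lost with RIN in the model (adjusted p = 0.0528). Arntl had a mean difference of -0.11 ± 0.21 (adjusted p = 0.63) and Per1 one of -0.03 ± 0.14 (adjusted p = 0.878).

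Clock and Nr1d2 passed at each of the 4 ages, with differences of -0.88 to -0.57 and of -1.85 to -1.33, and their I/R hearts did not overlap the normoxic hearts of the same age. Between 29% and 38.6% of all tested probes had no overlap in the same comparisons. At 48 weeks 6 of the 8 genes passed (background 62.3%), among them Arntl, which was not detected in I/R hearts and stood at least 1.44-fold lower (adjusted p = 0.0241), and Per2, which was higher by 2.04 ± 0.50 (adjusted p = 0.000543). At 8, 16 and 32 weeks 2, 4 and 3 of the 8 genes passed (backgrounds 53.5%, 54.9% and 64.5%).

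The scaling of the arrays moves these differences. With arrays centred on their medians in place of quantile normalization, the median of all tested probes went from -0.10 to -0.55, the share of lower among called probes from 58.8% to 81.5%, and 7 member genes passed in place of 4. Relative to the median of all probes, the I/R difference was -0.67 with quantile normalization and -0.96 with centring for Clock, -1.42 and -1.67 for Nr1d2, -0.39 and -0.65 for Cry2, and 1.29 and 1.11 for Per2. For Per3 and Nr1d1 the relative difference was 0.22 and 0.24 with quantile normalization and 0.00 (-0.0041) and -0.05 with centring, and for Arntl it was -0.01 and 0.15. The direction of these 3 genes relative to all probes thus depends on the scaling, and none of the 3 passed with quantile normalization.

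Different probes of 1 gene did not always give the same I/R difference. For Nr1d2 the bright probe (ILMN_1228513) was lower in I/R hearts at every age, while the dimmer probe (ILMN_2602387) was detected in 0 of 24 normoxic and 16 of 24 I/R hearts and passed the filter through the I/R hearts alone. That dimmer probe was detected in 3, 5, 6 and 2 of 6 I/R hearts at 8, 16, 32 and 48 weeks. At 16 and 32 weeks it stood at least 1.66-fold and 2.18-fold higher in I/R hearts. Because of the way it passed the filter, these values describe the probe and support no direction of the gene. Its between-heart r with the bright probe was 0.10 in normoxic and -0.08 in I/R hearts. For Nr1d1, the bright probe and ILMN_2749669 had mean I/R differences of 0.14 ± 0.09 and 0.07 ± 0.10 (adjusted p = 0.132 and 0.484) and were correlated between hearts (r = 0.91 in normoxic, 0.71 in I/R hearts). The remaining Nr1d1 probe, ILMN_2710551, was lower in I/R hearts by -1.02 ± 0.10 (adjusted p = 8.38e-13) and had r = 0.09 and 0.08 with the bright one.

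Per3 had differences of 0.12 ± 0.16 (adjusted p = 0.47) by its bright probe. Its probe ILMN_2609014 was detected in 10 normoxic and 1 I/R heart, and so passed the filter through the normoxic hearts. At 32 weeks, with detection in 5 normoxic and 0 I/R hearts, it stood at least 1.21-fold lower in I/R hearts. Because of the way it passed the filter, these values describe the probe and support no direction of the gene. Between hearts the bright Per3 probe and ILMN_2609014 had r = 0.85 in normoxic and 0.30 in I/R hearts. Per1 had -0.03 ± 0.14 by its bright probe and 0.51 ± 0.09 (adjusted p = 3.3e-06) by ILMN_1249997, detected in 10 normoxic and 14 I/R hearts, with r = 0.43 and 0.02 between them. All I/R statements on Nr1d2, Nr1d1, Per3 and Per1 therefore hold for the probe named and not for the gene as a whole, and which transcripts each probe reports was not tested.

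**Figure D5:**
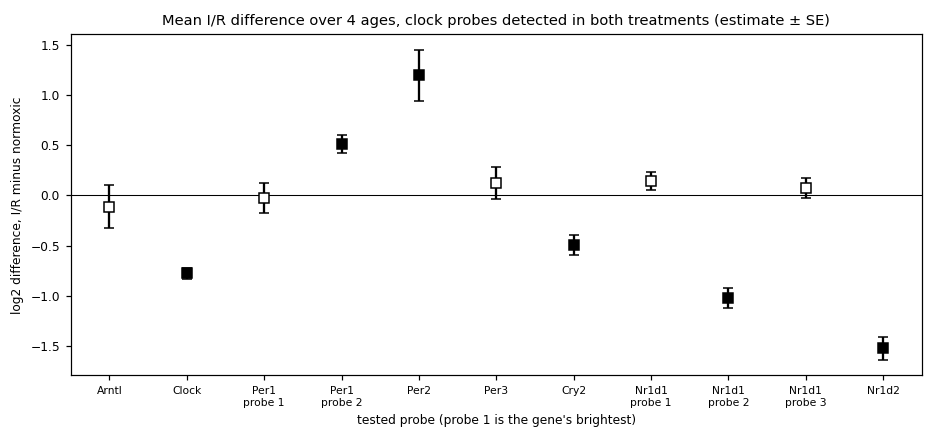
Mean I/R minus normoxic difference over the 4 ages (vertical axis, log2 units, estimate ± SE) for 11 of the 13 tested clock probes, filled where the adjusted p is under 0.05. One probe each of Per3 and Nr1d2, not detected in 1 of the treatments at 3 or more ages, is not drawn. The bright probe of Nr1d2 lies at -1.52, and the Nr1d1 probes lie at 0.14, -1.02 and 0.07.

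Whether the I/R difference depended on age was tested with an F test over the 4 ages. By their bright probes 0 of the 8 genes passed, against 22.4% of all tested probes, and the smallest adjusted p were 0.0659 for Nr1d1 and 0.0985 for Arntl. By other probes, 3 of the 5 tested passed: ILMN_2710551 of Nr1d1 (adjusted p = 0.00416), ILMN_1249997 of Per1 (0.0386) and ILMN_2602387 of Nr1d2 (0.0422), which no normoxic heart had above background. That Nr1d2 probe passed the filter through I/R hearts alone, so its p supports no dependence on age. With 3 of all 13 member probes, the share is near that of all probes. Nr1d1 also passed by its bright probe with median centring, without background correction and with the authors' deposited values.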

How the data were processed

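Signals of 48 bead arrays were used, 1 per heart in 8 groups of 6. The deposited signal is a linear intensity, not normalized, per the file headers. The deposited detection value, a fraction, rises with signal (lowest rank correlation 0.995) and was read as 1 minus the detection p. The authors' deposited processed values are close to a log2 scale (column medians 7.81 to 7.83). Per the submitters' processing notes lumi was used, and its transform and version are not given in the sources used here. They served as an alternative.

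Of 46628 lines, 4 without a probe identifier were left out. Of the probes, 29971 carried 1 gene symbol in the platform annotation, 10 carried several and 16643 carried no symbol, and 29916 symbols were updated by Entrez number. Background correction from the detection p (normexp, offset 16), quantile normalization, log2, and the fits (lmFit, eBayes) were done with limma 3.58.1 in R 4.3.3. A gene stands by its brightest tested probe, and its other probes are given beside it. All group comparisons came from 1 model with 8 group means, slopes from the same model with the Arntl deviation added. Tests were two-sided, and adjusted p-values (Benjamini-Hochberg, over all tested probes) under 0.05 were called. The fits were tested on simulated data. No 2 arrays were alike (highest rank correlation 0.891). Precision is limited by the number of arrays.

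The members, gene lists and tests were chosen with earlier results of these data known. Named genes are all members by every probe, up to 4 genes of each clock list and comparison by smallest p, and the 5 strongest slopes on Arntl in each direction. Alternatives were the scaling, background correction, filter on dim probes, RIN, array weights, a replicate block, the arrays in the fit, the probe of a gene, the reference gene and single hearts left out.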

Additional observations from a re-analysis of the deposited data

Results flagged for a closer look

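Of 64 combinations of a gene and a group, 8 held a heart far from the other 5 by Dixon's test, which flags about 1 in 20 groups by chance. In normoxic hearts of 8 weeks, replicate 6 stood at 8.87 for Per2 (nearest heart 6.47), 8.49 for Per3 (7.06) and 8.64 for Cry2 (8.01). In normoxic hearts of 32 weeks, replicate 6 stood at 6.38 for Per2 (8.19) and 6.91 for Per3 (8.34). In I/R hearts of 8 weeks, replicate 2 stood at 5.75 for Arntl (7.52) and replicate 4 at 6.92 for Nr1d2 (7.81). In I/R hearts of 32 weeks, replicate 2 stood at 8.26 for Clock (8.62). All values are log2 levels.

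The F test of whether the I/R difference depended on age (limma) passed for 3 member probes: ILMN_2710551 of Nr1d1 (adjusted p = 0.00416), ILMN_1249997 of Per1 (adjusted p = 0.0386) and ILMN_2602387 of Nr1d2 (adjusted p = 0.0422). With 3 of 13 member probes, the share is near the 22.4% of all tested probes. Their levels are at or near the background in part of the groups: ILMN_2710551 was detected in 3 of 6 I/R hearts at 48 weeks and ILMN_2602387 in 0 of 24 normoxic hearts, so that it passed the filter through I/R hearts alone.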

How the results depend on the processing

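The 4 slopes on Arntl in normoxic hearts (Clock, Per2, Per3 and Cry2) passed in every fit run that kept Arntl as the reference and each gene's brightest probe, and leaving out single hearts gave 4 to 5 genes. With Nr1d1 as the reference 0 passed in normoxic and 0 in I/R hearts. The 3 I/R slope calls fell to 0 with median centring, array weights, no filter on dim probes, only I/R arrays in the fit, and the replicate block (the hearts share only a number: deviations of same-numbered hearts had a mean r of 0.00396, and 11 of 48 hearts correlated best with their own number), and leaving out single hearts gave 0 to 4. The replicate block also ended the call of Arntl at 16 against 8 weeks in I/R hearts (adjusted p = 0.0531), and changed no other count by over 1.5 times. For I/R 16 against 8 weeks, alternatives chosen after seeing the data gave 0 genes with median centring, array weights and no filter, and 0 to 4 without single hearts. Any age difference called 3 genes with array weights in normoxic hearts (0 to 3 without single hearts), and in I/R hearts 5 to 7 without single hearts. The mean I/R difference called 7 genes with median centring and 4 to 5 without single hearts, and by its next brightest probe Nr1d2 stood higher (adjusted p = 2.05e-14). That probe was detected in 0 of 24 normoxic hearts and entered the tests through I/R hearts alone, so its p supports no direction. The I/R difference dependent on age called 1 gene with median centring, without background correction and with the authors' values. It called 2 by the next brightest probes, with that Nr1d2 probe among them, and 0 to 1 without single hearts. The count was 1 without replicate 3 of normoxic 48 weeks, replicate 2 or 4 of I/R 8 weeks, or replicate 1 of I/R 16 weeks. For normoxic 48 against 8 weeks and for the difference between slopes, the count was 0 in every fit run. The causes were not tested. The headers give no slide, so a fit with slides as a block was not run. Dim signal limits Arntl and Per1, whose lowest levels lie at the background, and its effect on their differences and on the slopes was not tested.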
